A study of Mus musculus with 16 samples.

Results

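The response of Ba/F3 cells carrying the ChimP3V3 receptor to interleukin-6 (IL-6) was read from 8 of the 16 libraries of the series: 4 libraries of cells given IL-6 against 4 libraries of cells in medium. The libraries were chosen by their labels, and every gene of the deposited table entered. Ba/F3 is a mouse cell line, usually described as pro-B, that needs interleukin-3 (IL-3) to grow and so is often used to test introduced cytokine receptors. The series title describes synthetic IL-6 receptor complexes whose output is mainly phosphorylation of STAT3.

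The 4 IL-6 libraries came from BaF3_ChimP3V3:gp130Box1/2 cells given IL-6 at 100 ng/ml, and the 4 medium libraries from the same line labelled Medium; both are called ChimP3V3 cells here. The other 8 libraries came from cells titled BaF3-gp130:IL-6R wt (gp130:IL-6R cells), which carry gp130 and the IL-6 receptor, 4 with IL-6 and 4 in medium. They serve to ask whether a response differed between the lines. They also entered the fit of the ChimP3V3 response, through the gene filter, the scaling of libraries and the estimate of spread. The time under IL-6, the presence of IL-3, and whether a line is 1 clone are not given in the sources used here, nor whether the 4 libraries of a group were separate cultures. Every difference below is therefore one between these 2 labelled conditions of 1 line.

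IL-6 binds its receptor and brings together the signalling chain gp130, whose cytoplasmic Box segments hold JAK kinases. The kinases phosphorylate docking sites that recruit STAT3, and a separate site recruits SHP2 and feeds the RAS-ERK pathway. STAT3 then enters the nucleus and switches on genes that include its own feedback inhibitor Socs3. In Ba/F3 cells the native growth signal runs from the IL-3 receptor through JAK2 and STAT5, whose target genes overlap with those of STAT3.

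Total counts were 1275112 to 1394849 in the IL-6 libraries and 1413247 to 1519201 in the medium libraries, so the 2 groups did not overlap in depth. A count of 0 in 1 library allows up to 2.17 to 2.41 CPM (counts scaled to a common library total) under IL-6 and 1.92 to 2.08 CPM in medium; these limits cover counting error only. Between 11134 and 11234 genes had a count under IL-6, and between 11117 and 11227 in medium. Libraries of a group differed little more than counting allows: the chi-square per degree of freedom between pairs was 1.02 to 1.14 under IL-6 and 0.964 to 1.05 in medium. For 1 pair under IL-6 and 5 pairs in medium the chi-square test found no difference beyond sampling noise (p from 0.0709 to 0.992). Such libraries may be technical repeats, so all p-values measure only the spread between these libraries. A fit that summed agreeing libraries in pairs left 3 IL-6 and 2 medium samples. It called 2549 genes where the fit of all libraries, used below, called 2625. Each library entered at most 1 pair, so this fit cannot show what would remain if all 4 libraries of a group were repeats.

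Markers of the B lineage were in part absent. Of 20 pro-B and lymphoid genes, 10 had no count in the 8 libraries, among them Rag1, Rag2 and Dntt, and Igll1 had 0 counts under IL-6 and 1 in medium. Vpreb1, part of the surrogate light chain, had 44 counts under IL-6 and 23 in medium, Ebf1, an early B-cell factor, 5 and 10, and Cd24a 20 and 24, and Cd79b, a B-cell receptor subunit, averaged 8.38 CPM under IL-6 and 8.76 CPM in medium. The summed level of the list was 87.7 to 107.05 CPM under IL-6 and 78.5 to 87.8 CPM in medium. Csf2rb, the shared signalling chain of the IL-3 receptor, averaged 474 CPM under IL-6 and 477 CPM in medium. Il6st, the gene of mouse gp130, and Il6ra, the gene of the mouse IL-6 receptor, had 0 counts in all 8 libraries. Il6st still passed the gene filter, through its counts in gp130:IL-6R cells. The table has no row for the introduced receptor that was used here.

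Of 9540 genes with enough counts to test, 2625 passed an adjusted p under 0.05 in edgeR's quasi-likelihood test (27.5% called), 1541 of them higher under IL-6 (16.2%) and 1084 lower (11.4%). Most changes were small. The median size of a called change was 0.35 on the log2 scale, and 80.6% of the calls were under 1.5-fold. A change of at least 1.5-fold was called for 293 genes higher and 217 lower (3.07% and 2.27% of the genes tested, 5.35% in all), at least 2-fold for 86 higher and 34 lower, and at least 4-fold for 14 higher and 4 lower. In 2139 of the called genes the 4 IL-6 and 4 medium libraries did not overlap; over all genes tested, 27.4% did not overlap. The median log2 change of all tested genes was 0.03. Counts over gene lists below are to be read against the 16.2% of all tested genes that rose and the 11.4% that fell. The lists were not matched to these genes for abundance.

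Calls followed abundance. Among genes with a mean of 500 CPM or more, 212 of 282 were called, 169 higher and 43 lower, while 13 of 346 genes under 5 CPM were called. The median size of a called change was 0.22 on the log2 scale in the first class and 1.59 in the second, since a low gene has to change more to pass. Genes for ribosomal proteins (81 genes) took 7.53% to 7.90% of the counts under IL-6 and 6.75% to 6.98% in medium, and the 13 mitochondrial genes 1.66% to 1.75% under IL-6 and 1.38% to 1.45% in medium. The lower library totals under IL-6 move with these shares, and their part in them was not tested. The split of calls also moved with the settings: 58.7% of them were higher as fitted, 53.8% with upper-quartile factors, 50.6% with a filter of 5 CPM and 50.2% in a fit of the 8 ChimP3V3 libraries alone.

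**Figure D1:**
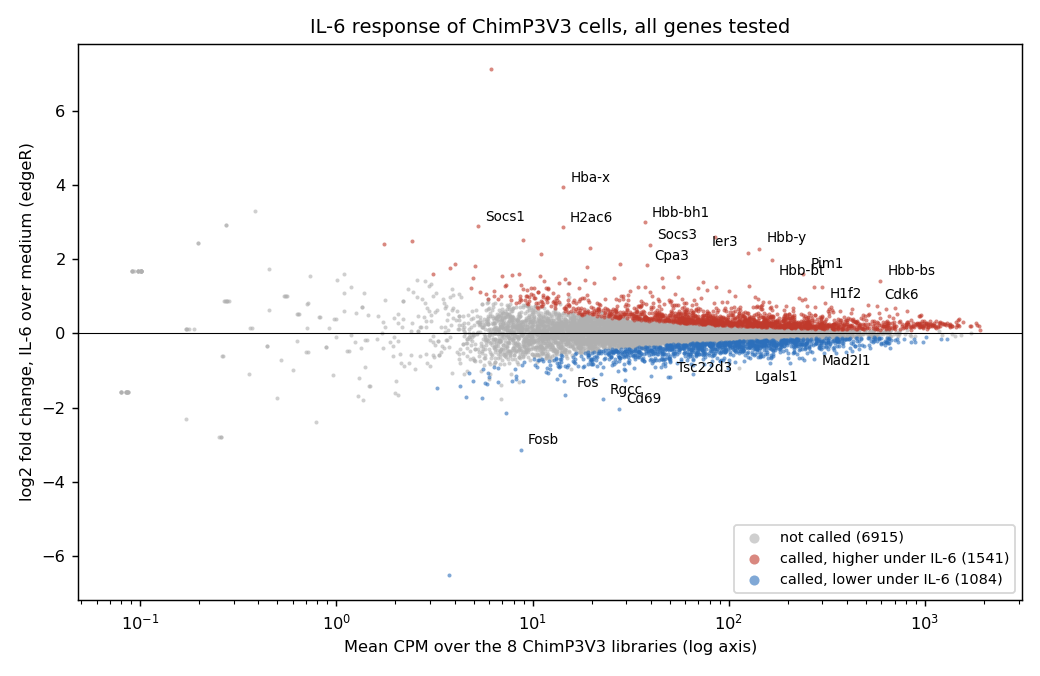
Each point is 1 of the 9540 tested genes; the x axis is its mean CPM over the 8 ChimP3V3 libraries (log axis) and the y axis its log2 fold change, IL-6 over medium, from edgeR. Red points are the 1541 genes called higher, blue points the 1084 called lower; named genes are those of the text, and the 2 points beyond 6 on either side had counts in only 2 libraries each.

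Genes of the receptor pathway itself were called higher about as often as all genes. Of 19 tested receptor chains, JAK kinases and STAT factors, 3 rose (Il4ra, Ifngr1 and Jak1; 15.8%, where 16.2% of all tested genes rose), 1 fell (Stat5b) and 15 were not called; their median log2 change was 0.08, against 0.03 over all genes. The 15 include Il6st, which had no count in ChimP3V3 cells. Jak1, the kinase most tied to gp130, had 677 to 737 CPM under IL-6 and 586 to 602 CPM in medium (1.18-fold, adjusted p = 1.57e-06). Stat3 had 220, 217, 220 and 220 CPM in the IL-6 libraries, against 227, 215, 215 and 208 CPM in the medium libraries. The groups overlapped, and the change was 0.02 on the log2 scale (SE 0.0523, adjusted p = 0.840); Stat3 lies next to Stat5a on the opposite strand, and reads of overlapping ends cannot be told apart without the strand setting. Stat5b averaged 52.0 CPM under IL-6 and 64.7 CPM in medium (adjusted p = 0.0279); that call was lost without IL-6 library 4 or medium library 2 or 4, with an adjusted p of up to 0.105, and that of Il4ra without IL-6 library 4 or medium library 1 or 3, with one of up to 0.144.

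Of 16 tested feedback inhibitors of STAT signalling, 7 rose, 0 fell and 9 were not called, with a median log2 change of 0.21. Socs3, which blocks JAK kinases bound to gp130, had 72.3, 66.2, 65.2 and 61.9 CPM in the IL-6 libraries, against 13.9, 10.9, 16.5 and 9.51 CPM in the medium libraries. Every IL-6 library was above every medium library, and the fold was 5.22 (log2 2.39, SE 0.158, adjusted p = 1.44e-15). Socs1, a second JAK inhibitor, had 8.68, 9.66, 7.76 and 11.3 CPM under IL-6, against 2.08, 1.92, 0.689 and 0 CPM in medium. Its medium values rest on 7 counts in all, so the fold of 7.42 (log2 2.89, SE 0.472, adjusted p = 5.44e-06) is loosely fixed. Cish, a classic STAT5 target, had 13.0, 16.4, 16.3 and 11.3 CPM under IL-6, against 5.56, 4.49, 13.1 and 8.15 CPM in medium; the groups overlapped (log2 0.87, SE 0.294, adjusted p = 0.0227), and the call was lost without IL-6 library 2 or 3 or medium library 1 or 2 (adjusted p up to 0.110). Socs5 and Socs7, whose roles in JAK signalling are less settled, rose by 0.62 and 0.44 on the log2 scale. Socs2 averaged 157 CPM under IL-6 and 172 CPM in medium and was not called (adjusted p = 0.132).

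The window upstream of the mouse Socs3 start is shown because STAT3 acts on Socs3 through this promoter. It holds 1 match to TTCNNNGAA, the palindrome that STAT dimers bind, written in capitals and starting 154 bases before the gene's start. The sequence is that of RefSeq on GRCm38.p6, minus strand, 250 bases at chr11:117969367-117969616, written 5′ to 3′ toward the gene; the table's own coordinates are on GRCm39, where the Socs3 gene spans chr11:117856905-117860873.
Socs3 promoter: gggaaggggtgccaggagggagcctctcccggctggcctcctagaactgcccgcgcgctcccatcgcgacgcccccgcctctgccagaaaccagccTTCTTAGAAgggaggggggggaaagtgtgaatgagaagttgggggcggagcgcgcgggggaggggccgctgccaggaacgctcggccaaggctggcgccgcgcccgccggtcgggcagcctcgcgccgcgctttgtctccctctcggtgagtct

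A match of this kind is common and no site by itself. It was found in 7.73% of the 220 promoters of genes called higher by at least 1.5-fold, in 7.73% of 181 promoters of genes called lower by as much, in 7.27% of the 7735 tested genes matched to a RefSeq promoter, and in 8.13% of all 27025 genes with one. These shares are descriptions of 250-base windows and say nothing of sites elsewhere.

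Among 17 tested STAT3 target genes of other kinds, 8 rose, 2 fell and 7 were not called, with a median log2 change of 0.21. Pim1, a survival kinase under STAT control, had 364, 354, 367 and 356 CPM in the IL-6 libraries, against 131, 115, 114 and 115 CPM in the medium libraries. All IL-6 values lay above all medium values, and the fold was 3.04 (log2 1.60, SE 0.053, adjusted p = 7.21e-26). Myc, the growth-promoting transcription factor, had 74.5, 80.3, 64.4 and 69.9 CPM under IL-6, against 50.03, 48.1, 40.6 and 50.2 CPM in medium (1.53-fold, adjusted p = 7.45e-06). Vegfa, an angiogenic growth factor, rose 1.84-fold, and Mcl1, an inhibitor of cell death, rose by 0.21 on the log2 scale. The 2 members that fell were Birc5, a mitotic regulator also known as survivin, and Tfrc, the transferrin receptor. Cebpb and Hif1a, also on this list, were not called, at log2 changes of 0.01 and -0.07. Bcl3, an NF-kB family member often used as a marker of STAT3 activity, had 0 counts under IL-6 and 1 count in medium and was not tested.

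Of 12 tested STAT5 and IL-3 target genes, 11 rose and 1 fell, with a median log2 change of 0.49. Of all tested genes 16.2% rose and 11.4% fell. The members were chosen with earlier results of these data known, so the count is a description and no test of STAT5 activity. Cish and Socs2, described above, are not among the 12. Osm, which encodes the cytokine oncostatin M, had 27.5, 32.7, 26.4 and 31.4 CPM under IL-6, against 9.03, 8.33, 6.198 and 10.2 CPM in medium. The groups were well apart (3.47-fold, log2 1.79, SE 0.190, adjusted p = 7.01e-10). Cdk6, a kinase that drives entry into the cell cycle, had 732, 713, 696 and 708 CPM under IL-6, against 435, 410, 439 and 425 CPM in medium (1.67-fold, log2 0.74, SE 0.0371, adjusted p = 1.48e-19). Id2, an inhibitor of E proteins, rose 1.76-fold, and Gadd45g, a stress-induced growth regulator, 2.90-fold. Bcl2, the death inhibitor that IL-3 sustains, had 801 to 850 CPM under IL-6 and 666 to 705 CPM in medium (1.20-fold, adjusted p = 8.81e-08). The member that fell was Cd69, an early activation marker of leukocytes, with 13.7, 11.2, 8.53 and 9.65 CPM under IL-6, against 40.3, 41.7, 47.5 and 48.2 CPM in medium. No library of the 2 groups overlapped (4.08-fold lower, log2 -2.03, SE 0.189, adjusted p = 6.15e-11).

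**Figure D2:**
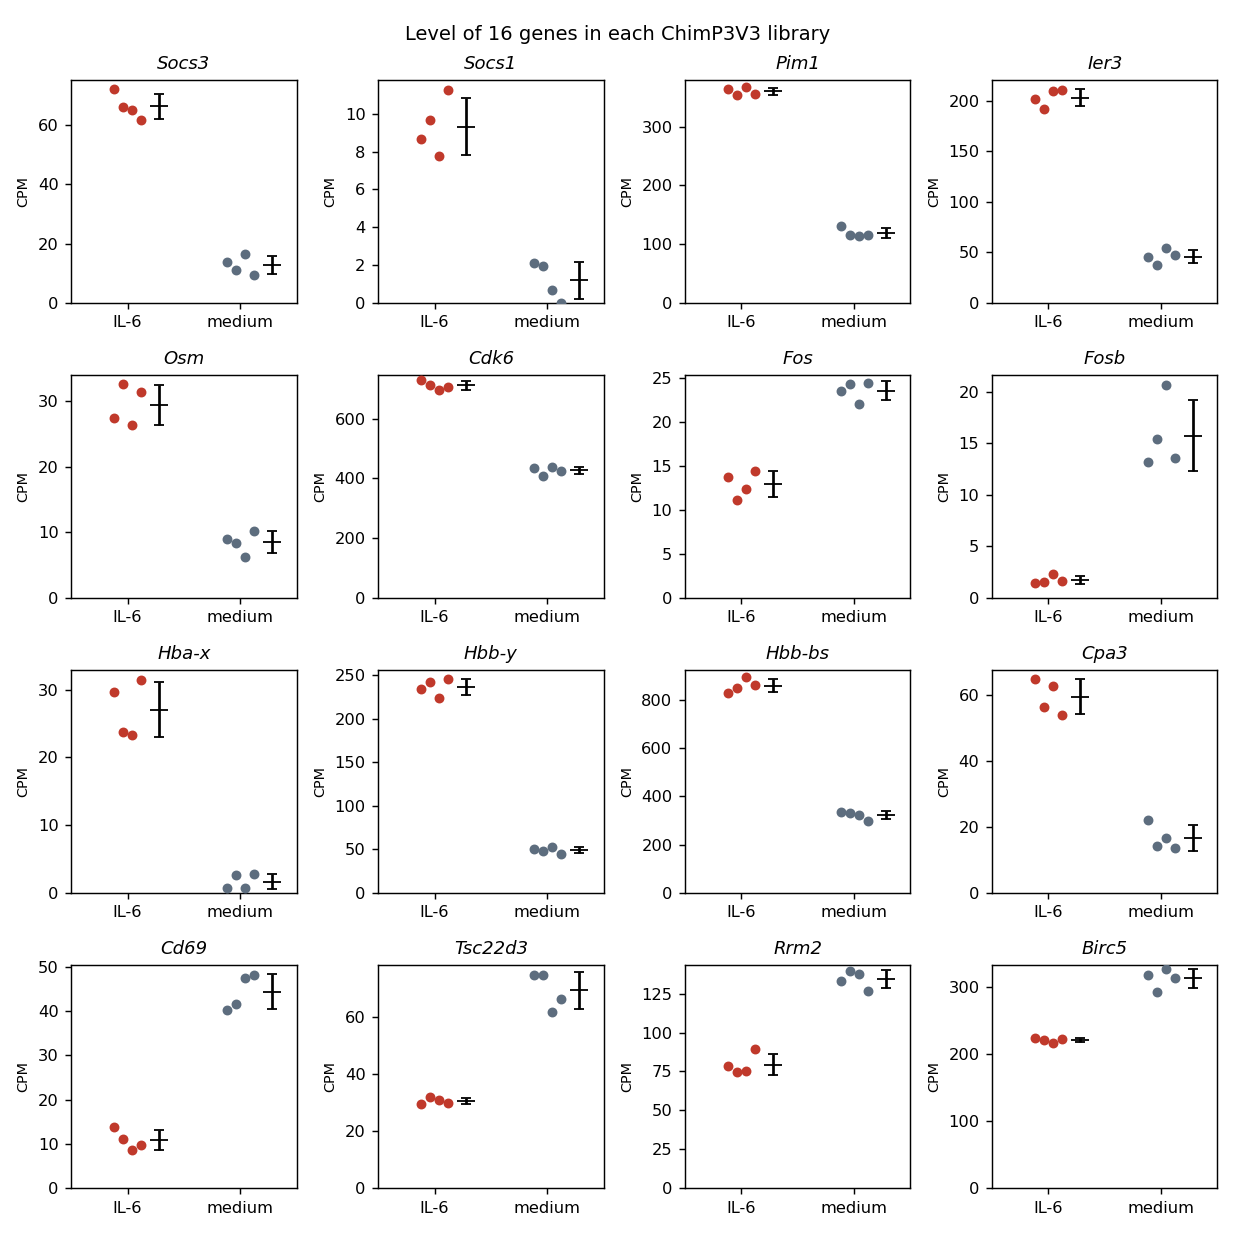
Level of 16 genes in CPM (y axis, from 0) in each ChimP3V3 library; points are libraries, IL-6 left and medium right, and the bar beside them is the mean with 1 SD (n = 4 each). In all 16 panels the 4 IL-6 libraries lie apart from the 4 medium libraries, Socs3 at 61.9 to 72.3 CPM against 9.51 to 16.5 CPM.

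Genes that ERK signalling induces early were called in both directions. AP-1 is a pair of proteins of the FOS and JUN families, and FOS genes answer to ERK within minutes of a stimulus in many cells. The list of AP-1 subunits used here also holds ATF, BATF and small MAF genes. Of its 11 tested members, 5 rose and 2 fell. Fos had 13.7, 11.2, 12.4 and 14.5 CPM under IL-6, against 23.6, 24.4, 22.04 and 24.4 CPM in medium. Each IL-6 library was below each medium library (1.82-fold lower, log2 -0.87, SE 0.195, adjusted p = 0.000577). Fosb, its close relative, had 1.45, 1.49, 2.33 and 1.61 CPM under IL-6, against 13.2, 15.4, 20.7 and 13.6 CPM in medium, and had the largest fall among the tested members of the lists (8.79-fold lower, log2 -3.14, SE 0.366, adjusted p = 6.60e-09). Each of its IL-6 values rests on 3 counts or fewer (3 counts are 2.17 to 2.41 CPM there), so the fold is loosely fixed. Junb, which also responds to STAT3, had 144, 135, 146 and 166 CPM under IL-6, against 112, 94.2, 99.2 and 97.1 CPM in medium (1.46-fold, adjusted p = 1.70e-07); it shares ground with Prdx2 on the other strand. The small MAF genes Maff and Mafk rose by 1.46 and 1.29 on the log2 scale, and Fosl2 averaged 71.1 CPM under IL-6 and 71.0 CPM in medium.

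Of 17 tested ERK early and feedback genes, 7 rose and 2 fell, with a median log2 change of 0.40. Ier3, an early-response gene linked to survival, had 202, 192, 210 and 211 CPM under IL-6, against 45.2, 37.2, 53.7 and 46.9 CPM in medium. The gap between the groups was far wider than their spread (4.46-fold, log2 2.16, SE 0.0854, adjusted p = 3.12e-23). Dusp6, the phosphatase that switches off ERK, had 49.9, 53.5, 56.6 and 48.2 CPM under IL-6, against 32.0, 33.3, 42.0 and 36.0 CPM in medium (1.45-fold, adjusted p = 0.000351). Dusp1, another phosphatase of MAP kinases, had 43.4, 54.3, 48.1 and 55.5 CPM under IL-6, against 77.8, 76.3, 73.0 and 81.5 CPM in medium, and fell 1.54-fold (adjusted p = 3.24e-06). Ier5 was the other gene that fell, by 0.27 on the log2 scale. Phlda1 and Dusp2 rose by 0.94 and 1.05 on the log2 scale, and Rgs1, a brake on G-protein signals, by 0.73. The call of Dusp2 was lost without IL-6 library 2, 3 or 4 or medium library 1, 2 or 4 (adjusted p up to 0.0962). Egr1, the ERK-induced zinc-finger factor, had 2 counts under IL-6 and 2 in medium and was not tested.

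Globin genes, which encode the chains of haemoglobin, had the highest median change of all lists with more than 1 tested gene. All 7 tested globin genes rose, of 10 on the list, with a median log2 change of 1.97; with limma on log2(CPM + 1) 5 were called, without Hba-a1 (adjusted p = 0.121) and Hba-a2 (adjusted p = 0.298). The other 3 had too few counts, with 9 counts of Hbq1a under IL-6 and 0 in medium, 2 and 0 of Hbq1b, and none of Hbb-bh2. Summed globin level was 3003 to 3121 CPM under IL-6 and 1437 to 1611 CPM in medium. In bulk libraries a change in the number of cells that express a gene and a change in RNA per cell cannot be told apart, here and below. Reads of near-identical copies, Hba-a1 and Hba-a2 or Hbb-bs and Hbb-bt, can match either, so the split between copies is uncertain.

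The embryonic globins rose most. Hba-x, the zeta chain of the yolk sac, had 29.6, 23.8, 23.3 and 31.4 CPM under IL-6, against 0.695, 2.56, 0.689 and 2.72 CPM in medium. Only 10 counts lie behind the medium values, so the fold of 15.3 (log2 3.93, SE 0.347, adjusted p = 3.76e-11) is known less well than those of the other globins. Hbb-bh1, an embryonic beta-like chain, had 69.4, 65.4, 62.8 and 68.3 CPM under IL-6, against 4.17, 10.9, 10.3 and 7.47 CPM in medium (7.97-fold, log2 2.99, SE 0.182, adjusted p = 2.63e-15). Hbb-y, the embryonic epsilon-like chain, had 234, 242, 224 and 245 CPM under IL-6, against 50.03, 48.1, 53.03 and 44.8 CPM in medium (4.82-fold, log2 2.27, SE 0.0748, adjusted p = 3.05e-23). None of these 3 genes overlapped between the groups.

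Adult globins rose by less. Hbb-bt, an adult beta chain, had 278, 256, 251 and 268 CPM under IL-6, against 62.5, 72.4, 70.2 and 63.1 CPM in medium (3.91-fold, log2 1.97, SE 0.0686, adjusted p = 9.63e-24). Hbb-bs, the other adult beta chain, had 829, 851, 894 and 860 CPM under IL-6, against 334, 331, 322 and 297 CPM in medium (2.67-fold, log2 1.42, SE 0.0377, adjusted p = 7.21e-26). The adult alpha chains Hba-a1 and Hba-a2 averaged 780 and 848 CPM under IL-6, against 493 and 593 CPM in medium, with log2 changes of 0.66 (SE 0.0429) and 0.51 (SE 0.0363). In gp130:IL-6R cells Hba-x, Hbb-bh1, Hbb-y and Hbb-bs had 0 counts in all 8 libraries, so whether their response differs between the lines could not be tested. Of the 7 tested globin genes, 1 had a called negative difference, with the ChimP3V3 change below the gp130:IL-6R change, and 0 had a positive one.

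The windows upstream of 3 globin genes are shown because these genes rose together and because erythroid factors bind short motifs there: GATA1 at AGATAA or TGATAA, and KLF1 at CCACACCC. Matches on either strand are in capitals; the 2 GATA patterns and CCACACCC do not overlap each other in these windows. The sequences are from RefSeq on GRCm38.p6, 250 bases before the start, 5′ to 3′ toward the gene: Hba-x at chr11:32276350-32276599 (plus strand), Hbb-y at chr7:103853208-103853457 (minus strand) and Hbb-bs at chr7:103827929-103828178 (minus strand).
Hba-x promoter: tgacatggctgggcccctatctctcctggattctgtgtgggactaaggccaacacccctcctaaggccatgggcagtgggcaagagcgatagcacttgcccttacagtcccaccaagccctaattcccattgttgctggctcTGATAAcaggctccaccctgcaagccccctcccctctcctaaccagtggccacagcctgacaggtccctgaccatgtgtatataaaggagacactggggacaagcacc
Hbb-y promoter: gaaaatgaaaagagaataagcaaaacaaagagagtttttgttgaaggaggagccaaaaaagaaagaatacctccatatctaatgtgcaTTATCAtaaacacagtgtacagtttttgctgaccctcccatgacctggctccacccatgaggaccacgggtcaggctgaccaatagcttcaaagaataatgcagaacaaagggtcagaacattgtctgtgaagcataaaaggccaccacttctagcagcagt
Hbb-bs promoter: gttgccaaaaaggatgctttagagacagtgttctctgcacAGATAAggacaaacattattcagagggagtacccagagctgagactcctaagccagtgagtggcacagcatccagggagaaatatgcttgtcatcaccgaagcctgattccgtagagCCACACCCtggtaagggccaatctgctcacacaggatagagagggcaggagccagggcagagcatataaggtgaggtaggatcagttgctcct

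Hba-x has 1 GATA match starting 108 bases before the gene's start, Hbb-y has 1 on the reverse strand (TTATCA) at 162 bases before, and Hbb-bs has 1 at 210 bases before and a CCACACCC match at 93 bases before. Of the 220 matched promoters of genes called higher by at least 1.5-fold, 19.6% held a GATA match and 6.36% a CCACACCC match. Among the 181 promoters of genes called lower by as much the shares were 6.08% and 2.21%, among the 7735 tested genes 10.9% and 4.01%, and among all 27025 genes 18.8% and 3.68%. These are counts of letters in windows and not of binding.

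Transcription factors and surface genes of the erythroid and megakaryocyte lineages rose in part. Of 19 tested, 9 rose, 0 fell and 10 were not called, with a median log2 change of 0.30. Cbfa2t3, a corepressor in GATA1 and TAL1 complexes, had 493 to 539 CPM under IL-6 and 301 to 348 CPM in medium (1.58-fold, adjusted p = 7.37e-16). Nfe2, a globin-regulating factor, rose 1.37-fold, and Itga2b, a platelet integrin, 1.35-fold. Gata2 and Tal1 rose by 0.29 and 0.21 on the log2 scale. The erythroid master factors Gata1 and Klf1 were not called: Gata1 averaged 78.8 CPM under IL-6 and 87.7 CPM in medium (adjusted p = 0.253), and Klf1 138 CPM under IL-6 and 123 CPM in medium (adjusted p = 0.101). Bcl11a, a repressor of embryonic globins, had 0 counts in all 8 libraries, as did the red-cell membrane gene Slc4a1.

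Haem synthesis and iron genes did not move as one: of 21 tested, 3 rose and 4 fell, with a median log2 change of -0.02. Ftl1, the ferritin light chain, and Tspo, a mitochondrial membrane protein tied to haem transport, rose by 0.33 and 0.30, and Alad, a haem synthesis enzyme, by 0.27 (adjusted p = 0.0481, lost in 16 alternatives, among them leaving out any 1 library other than medium 1 or 3, adjusted p up to 0.226). Alas1, the first enzyme of the housekeeping haem pathway, fell by 0.40 (its call was lost without IL-6 library 2 or medium library 3, adjusted p up to 0.0622), Slc11a2, an iron transporter, fell by 0.56 and Tfrc fell by 0.32. Hmox2 also fell.

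Some mast cell and basophil genes rose. Of 22 on the list, 10 had no count in the 8 libraries, Kit, Tpsab1 and Cma1 among them, and 6 were tested, of which 4 rose, 0 fell and 2 were not called. Cpa3, a mast cell protease, had 65.1, 56.5, 62.8 and 53.9 CPM under IL-6, against 22.2, 14.1, 16.5 and 13.6 CPM in medium (3.59-fold, log2 1.84, SE 0.164, adjusted p = 1.62e-11). Fcer1a, the IgE-binding chain of the high-affinity receptor, had 18.1, 14.1, 23.3 and 16.9 CPM under IL-6, against 4.17, 2.56, 6.89 and 2.72 CPM in medium (4.38-fold, log2 2.13, SE 0.330, adjusted p = 2.14e-06). Both genes were higher in every IL-6 library than in any medium library. Srgn, the granule proteoglycan serglycin, rose by 0.23 on the log2 scale. Ms4a2, the beta chain of the same receptor, had 36 counts under IL-6 and 12 in medium, Hdc, the enzyme that makes histamine, 31 and 29, and the chymase Mcpt4 0 and 1; none of the 3 was tested.

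Genes of other lineages gave few values. Of 10 tested neutrophil granule genes, 2 rose (20%, near the 16.2% of all tested genes). They were Ms4a3, a myeloid progenitor marker, 2.34-fold (adjusted p = 0.000139) and Ctsc, the protease that activates granule enzymes, by 0.23 on the log2 scale. Of 5 tested macrophage and dendritic cell markers, 1 rose, Ccr2, a chemokine receptor, at 201 to 216 CPM under IL-6 and 160 to 178 CPM in medium; 6 of that list's 14 genes had no count. Of 14 T and NK cell markers, 8 had no count, Cd3e and Cd4 among them, and their summed level was 5.95 to 8.84 CPM under IL-6 and 0.689 to 2.56 CPM in medium. The tested one, Gzmb, encodes the protease granzyme B, which mast cells also express; it averaged 4.17 CPM under IL-6 and 0.673 CPM in medium (adjusted p = 0.000654). Of 12 fibroblast and epithelial markers, 8 had no count, among them Dcn, Epcam and Krt8, and 1 was tested, Vim, the intermediate filament vimentin, which fell 1.34-fold.

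Cytokine and adhesion genes rose more often than they fell. Of 11 tested cytokines and secreted factors, 4 rose and 1 fell. Il6, the gene of the ligand itself, had 13.7 to 19.4 CPM under IL-6 and 7.47 to 10.3 CPM in medium (1.95-fold, log2 0.96, adjusted p = 0.000620). Osm, Vegfa and Mif also rose, and Angptl2, a secreted glycoprotein, fell 3.34-fold, at 1.45, 1.49, 3.10 and 4.02 CPM under IL-6, against 11.8, 5.13, 10.3 and 6.79 CPM in medium. Angptl2 overlaps Ralgps1 on the other strand. Of 22 tested adhesion and homing genes, 10 rose and 1, Cd69, fell. Cd47, the signal that protects cells from phagocytosis, and Cd44, a hyaluronan receptor, rose by 0.37 and 0.26 on the log2 scale.

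Most genes of cell division fell. Of 50 tested genes of mitosis and the spindle checkpoint, 46 fell and 0 rose, with a median log2 change of -0.49, where 11.4% of all tested genes fell. Mad2l1, a spindle checkpoint protein, had 216, 205, 199 and 209 CPM under IL-6, against 348, 319, 343 and 333 CPM in medium. No IL-6 library reached the lowest medium library (1.62-fold lower, log2 -0.69, SE 0.0489, adjusted p = 7.97e-15). Cenpe, a kinetochore motor, had 186, 175, 195 and 170 CPM under IL-6, against 263, 297, 301 and 299 CPM in medium (1.60-fold lower, adjusted p = 1.26e-12). Top2a, the topoisomerase that untangles chromosomes, and Birc5 fell 1.32-fold and 1.41-fold, and the kinesin Kif4 2.01-fold. The 4 members not called were Ccnb2, Bub3, Knstrn and Smc4, at log2 changes of -0.14, -0.11, -0.21 and -0.07.

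Most DNA replication and nucleotide synthesis genes fell too. Of 44 tested, 33 fell and 2 rose, with a median log2 change of -0.35. Rrm2, a subunit of the enzyme that makes deoxynucleotides, had 74.3 to 89.2 CPM under IL-6 and 127 to 140 CPM in medium (1.70-fold lower, adjusted p = 8.47e-11). Mcm3, a subunit of the replicative helicase, fell 1.43-fold and the replication factor Mcm10 1.88-fold. The 2 genes that rose were Gins2, a helicase cofactor, and Rfc2, a clamp loader, by 0.20 and 0.31 on the log2 scale. Of 31 tested DNA repair genes, 16 fell and 0 rose, among them Bard1 and Blm, which act in repair by recombination, at log2 changes of -0.75 and -0.70. Pclaf, a PCNA-binding factor that overlaps Trip4, and Hells, a chromatin remodeller of dividing cells, fell 1.63-fold and 1.73-fold.

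The regulators that act before S phase split. Of 20 tested G1 cyclins, CDKs and inhibitors, 5 rose and 8 fell. Cdk6, Ccnd2 and Ccnd3, which form the cyclin D kinases, rose, and so did the inhibitors Cdkn1a (p21) and Cdkn1b (p27), by 0.34 and 0.19 on the log2 scale. The call of Ccnd3 was lost without IL-6 library 1 (adjusted p = 0.0661), and that of Cdkn1b without IL-6 library 1, 3 or 4 or medium library 3 (adjusted p up to 0.144). Ccne1, the cyclin of the next kinase, had 20.8 to 25.6 CPM under IL-6 and 38.5 to 50.3 CPM in medium (1.91-fold lower, adjusted p = 5.82e-07), and Cdkn2c, an inhibitor of CDK4 and CDK6, Cdk2, Cdk4, E2f1 and Cdc25a also fell. Of 21 tested replication-dependent histone genes, 8 rose, 1 fell and 12 were not called, with a median log2 change of 0.40. H2ac6 had 26.7, 22.3, 27.9 and 23.3 CPM under IL-6, against 2.78, 2.56, 4.13 and 4.07 CPM in medium (7.27-fold, log2 2.86, SE 0.250, adjusted p = 4.46e-12). H1f2 rose 2.37-fold and H3c4 2.86-fold; H4c2 fell, a call lost without 6 of the 8 libraries (all but IL-6 library 3 and medium library 4, adjusted p up to 0.103). Most transcripts of these genes lack a poly(A) tail, and the library kit starts from poly(A), so the values cover the polyadenylated part only, and family members share sequence.

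**Figure D3:**
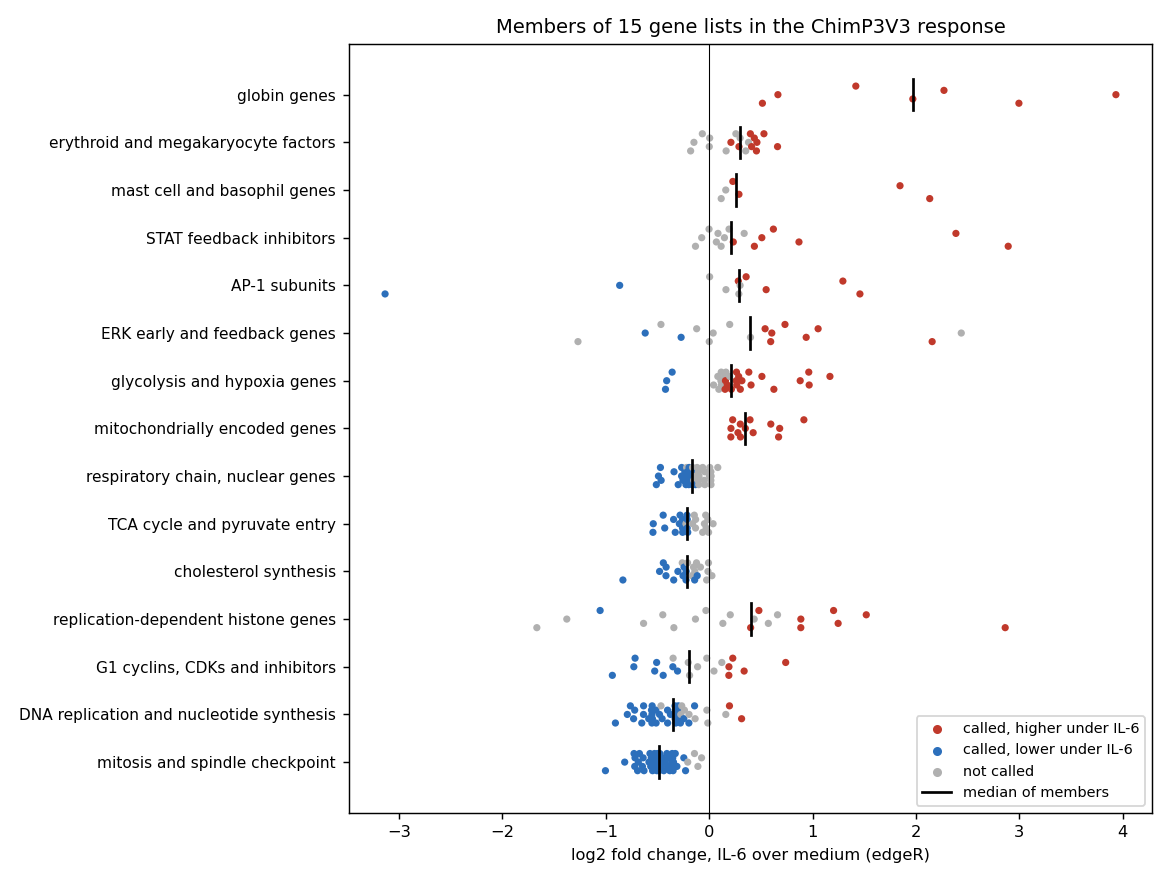
Log2 fold change, IL-6 over medium (x axis, edgeR), of every tested member of 15 of the 44 gene lists (y axis); 1 point is 1 gene, coloured by its call, and the black line is the list's median. Globin genes spread to the right with a median of 1.97, mitosis genes sit left of 0 with a median of -0.49, and AP-1 subunits lie on both sides.

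Of 30 tested glycolysis and hypoxia genes, 18 rose and 3 fell, with a median log2 change of 0.21. Ndrg1, a hypoxia-induced gene, had 290 to 313 CPM under IL-6 and 145 to 159 CPM in medium (1.95-fold, adjusted p = 1.78e-18). Hk2, the inducible hexokinase that starts glycolysis, rose 1.54-fold, Pdk1, which keeps pyruvate out of mitochondria, 1.42-fold, and Bnip3, a mitophagy receptor, 1.30-fold. The 3 genes that fell were the glucose carrier Slc2a3, the lactate carrier Slc16a1 and Pfkfb4, a regulator of glycolysis; the call of Pfkfb4 was lost without IL-6 library 3 or 4 or medium library 1 or 2 (adjusted p up to 0.121). Of 27 tested genes of the TCA cycle and pyruvate entry, 15 fell and 0 rose, with a median log2 change of -0.21; Got2 and Got1, which shuttle aspartate, and Idh2, a mitochondrial isocitrate dehydrogenase, were at log2 changes of -0.54, -0.54 and -0.43.

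The respiratory chain is built from nuclear and mitochondrial genes. Of its 43 tested nuclear genes, 23 fell and 0 rose (median log2 -0.16), while all 13 genes encoded in mitochondrial DNA rose (median log2 0.35). Cyc1, a subunit of complex III, and Cycs, which carries electrons to complex IV, fell by 0.51 and 0.49 on the log2 scale. mt-Nd3, a subunit of complex I, had 817 to 917 CPM under IL-6 and 515 to 574 CPM in medium (1.60-fold, adjusted p = 2.56e-16). mt-Co1, a core subunit of complex IV, rose 1.31-fold. Mitochondrial genes lie close together, and mt-Nd4l and mt-Nd5 overlap their neighbours. These genes are abundant, and the lower totals of the IL-6 libraries, given above, move with them; their part in the result was not tested.

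Of 24 tested cholesterol synthesis genes, 13 fell and 0 rose (median log2 -0.22), among them Hmgcs1, an early enzyme of the pathway, at 305 to 327 CPM under IL-6 and 376 to 420 CPM in medium, and Mvk, mevalonate kinase, 1.78-fold lower. Of 17 tested fatty acid synthesis genes, 4 rose and 0 fell: the desaturases Scd2, Fads1 and Fads2 and the acetate-activating enzyme Acss2, by 0.21 to 0.40 on the log2 scale; the call of Fads1 was lost without IL-6 library 4 (adjusted p = 0.0527). Serine and one-carbon enzymes were among the falls of 31 tested genes of the integrated stress response and amino acid supply. Of these 31, 6 rose (19.4%) and 8 fell (25.8%), where 16.2% of all tested genes rose and 11.4% fell. Phgdh, the first enzyme of serine synthesis, had 48.4 to 74.8 CPM under IL-6 and 95.5 to 110 CPM in medium (1.80-fold lower, adjusted p = 8.01e-09), and Shmt2, Asns and Psat1 fell 1.69-fold, 1.63-fold and 1.39-fold. Ppp1r15a, which ends the stress response by restoring translation, rose 2.17-fold.

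ER chaperone and ribosome biogenesis genes were called at shares not far from those over all tested genes, 16.2% higher and 11.4% lower. Of 26 tested ER chaperone genes, 5 rose and 4 fell; Dnajb9 rose 1.69-fold and Xbp1 by 0.26 on the log2 scale, and Hspa5 was not called. Of 17 tested heat shock chaperones, 4 rose and 4 fell, with the mitochondrial chaperone Hspd1 falling 1.40-fold. Of 40 tested ribosome biogenesis genes, 8 rose and 5 fell, and Gnl3, a nucleolar protein of proliferating cells, rose 1.65-fold. Of 12 tested genes of the MYC network, 5 rose and 0 fell; Mycn had 95.4 to 118 CPM under IL-6 and 64.0 to 69.3 CPM in medium (1.62-fold, adjusted p = 1.49e-08).

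Genes that FOXO factors induce when growth signals are low rose more often than they fell: 11 of 23 tested rose and 3 fell, with a median log2 change of 0.26. Txnip, an inhibitor of glucose uptake, had 395, 390, 403 and 394 CPM under IL-6, against 231, 225, 214 and 227 CPM in medium (1.76-fold, adjusted p = 6.24e-17). Bcl2l11, which encodes the death inducer BIM, rose 1.61-fold, and Gadd45a, a stress-induced brake on the cycle, 1.80-fold. Tsc22d3, a glucocorticoid-induced FOXO target known as GILZ, had 29.6 to 32.0 CPM under IL-6 and 62.0 to 75.0 CPM in medium, and fell 2.27-fold (adjusted p = 7.40e-11). Of 14 tested BCL2 family genes, 7 rose and 1 fell, and they include both survival genes (Bcl2, Mcl1) and death genes (Bcl2l11, Bbc3). Of 35 tested autophagy and lysosome genes, 12 rose and 0 fell, and of 23 tested p53 targets, 7 rose and 2 fell.

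Of 26 tested interferon-stimulated genes, 3 rose (11.5%) and 5 fell (19.2%), where 16.2% of all tested genes rose and 11.4% fell. Irf1, an interferon-induced transcription factor, had 81.7, 85.5, 86.9 and 71.6 CPM under IL-6, against 66.0, 71.8, 62.7 and 66.5 CPM in medium. The groups overlapped by 1 library pair, and the rise (log2 0.29, SE 0.0909, adjusted p = 0.0195) lost its call in 7 alternatives, among them without IL-6 library 1, 2 or 3 or medium library 3 (adjusted p up to 0.124). Ifitm3, an antiviral membrane protein, fell 1.60-fold, and Psmb10, an immunoproteasome subunit, 1.74-fold. Of 19 tested genes of MHC class I presentation, 6 rose and 2 fell. Of 16 tested NF-kB targets, 5 rose and 0 fell, including Nfkbiz, an atypical NF-kB inhibitor, at 26.0 to 32.7 CPM under IL-6 and 7.58 to 14.3 CPM in medium (2.55-fold, adjusted p = 9.71e-07).

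Of 16 tested mRNA decay regulators, 6 rose, 1 fell and 9 were not called, with a median log2 change of 0.08. Zfp36l2, which binds AU-rich elements, had 652, 638, 639 and 652 CPM under IL-6, against 400, 359, 377 and 376 CPM in medium (1.71-fold, adjusted p = 3.49e-19), and its relatives Zfp36 and Zfp36l1 rose by 1.48 and 0.73 on the log2 scale. Of 8 tested ID and E proteins, 4 rose and 0 fell. Of 15 tested RGS and G-protein genes, 3 rose (20%, near the 16.2% of all tested genes), including Rgs18, 1.42-fold. Grk6 fell, a call lost without IL-6 library 1, 2 or 3 or medium library 2 or 4 (adjusted p up to 0.237). Among 12 tested KLF factors, Klf6 alone was called, and it fell.

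**Figure D4:**
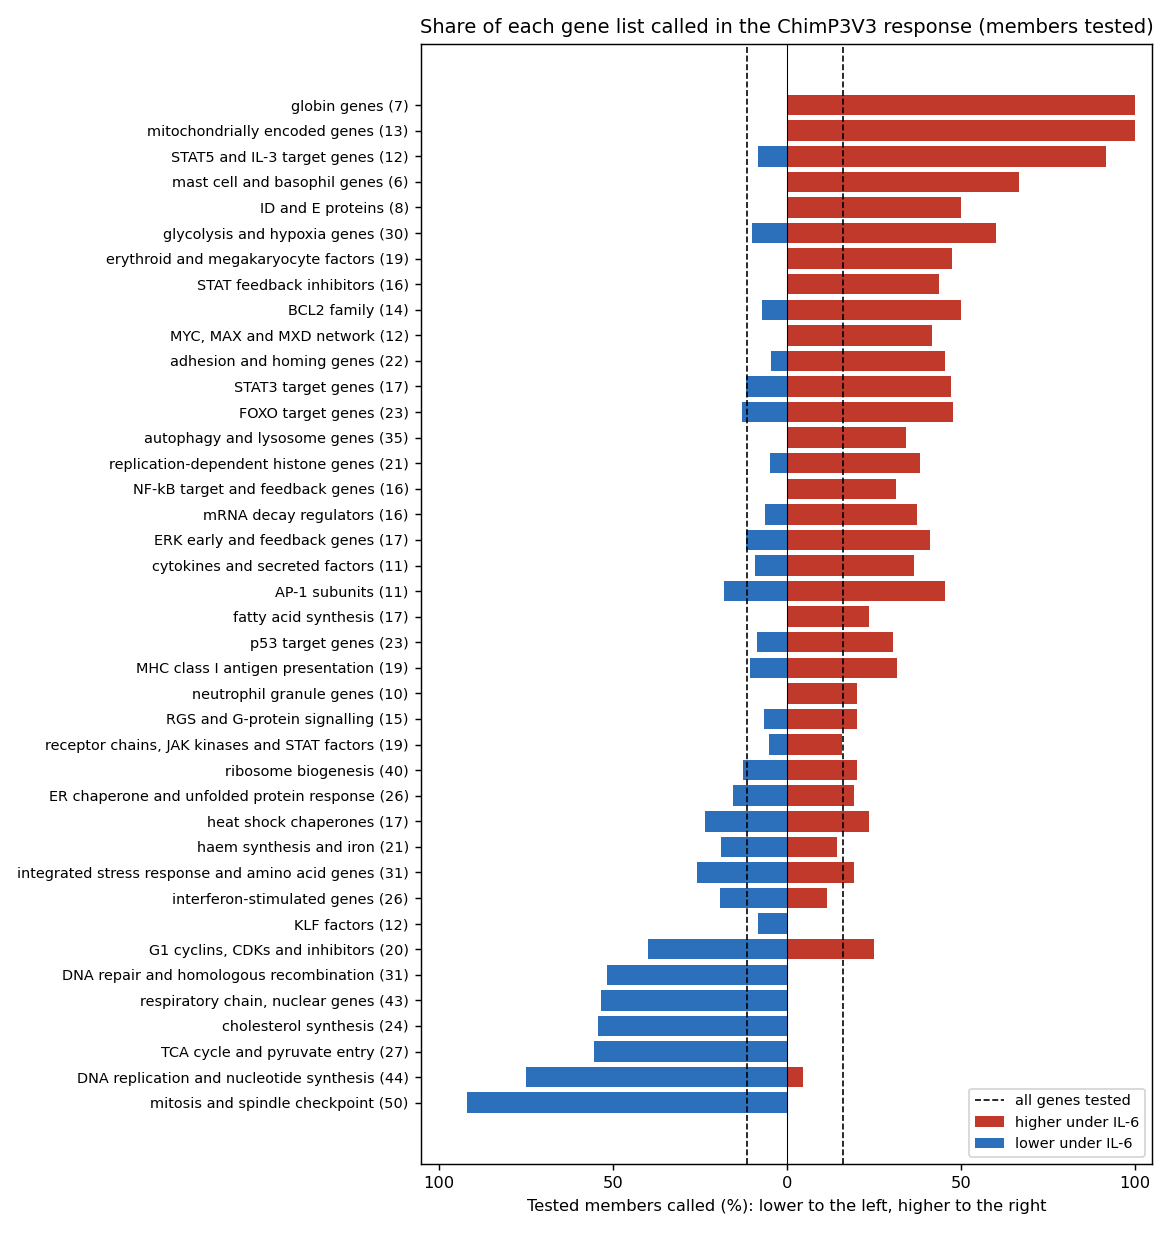
Share of the tested members of each gene list that was called (x axis, percent), higher under IL-6 to the right in red and lower to the left in blue, for lists with at least 6 tested members (number in brackets). Dashed lines are the shares over all tested genes, 16.2% higher and 11.4% lower; globin and mitochondrially encoded genes reach 100% higher, and mitosis genes 92% lower.

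Some of the largest changes lay outside these lists. Slc6a20a, an amino acid transporter, had 28.9, 37.2, 28.7 and 35.4 CPM under IL-6, against 6.95, 7.69, 7.58 and 4.07 CPM in medium (4.89-fold, adjusted p = 9.66e-10); it overlaps Ccr9 on the other strand. Zbtb20, a zinc-finger repressor, had 54.9, 43.1, 35.7 and 40.2 CPM under IL-6, against 9.03, 9.62, 11.7 and 17.7 CPM in medium (3.63-fold, adjusted p = 2.32e-10). Sla, an adaptor that lowers antigen receptor signals, had 378, 386, 379 and 383 CPM under IL-6, against 164, 152, 158 and 167 CPM in medium (2.38-fold, adjusted p = 3.12e-23). All 3 genes were clear of overlap. Gria3, a glutamate receptor subunit, and Scin, an actin-severing protein, rose 2.34-fold and 1.85-fold.

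Among the largest falls by fold, Zswim4 had 4.34, 2.23, 2.33 and 1.61 CPM under IL-6, against 9.73, 9.62, 12.4 and 16.3 CPM in medium (4.40-fold lower, adjusted p = 8.88e-05). Rgcc, a regulator of the cell cycle, had 12.3, 6.69, 12.4 and 9.65 CPM under IL-6, against 38.2, 33.3, 42.7 and 27.2 CPM in medium (3.42-fold lower, adjusted p = 2.78e-09). Rapsn, the receptor-clustering protein rapsyn, had 8.68, 7.43, 6.21 and 5.63 CPM under IL-6, against 19.5, 34.6, 14.5 and 21.05 CPM in medium (3.18-fold lower). Groups did not overlap for any of the 3. Lurap1, Rad51c, Sapcd2, Pcyt1b, Dedd, Zfp960, Wfs1 and Mecr fell 2.33-fold to 2.52-fold, with levels of 3.20 to 17.6 CPM under IL-6 and 8.26 to 41.8 CPM in medium; the call of Lurap1 was lost without IL-6 library 2 (adjusted p = 0.0524). Among more abundant genes, Lgals1, the lectin galectin-1, had 161, 146, 145 and 147 CPM under IL-6, against 271, 260, 270 and 246 CPM in medium (1.74-fold lower, adjusted p = 4.36e-14), and Fam3c, a secreted protein, fell 1.58-fold.

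The 2 extreme points of the response were not stable genes. A predicted gene, the highest, had 35 and 27 counts in IL-6 libraries 3 and 4 and 0 in the other 6 libraries, and Avpr2, the lowest, had 11 and 35 counts in medium libraries 1 and 2 and 0 in the other 6; both were picked out after their values were seen. A count in all 4 IL-6 libraries and none in medium was found for 12 genes, and the reverse for 2; none had enough counts to test. The first are led by Hoatz, with 14 counts under IL-6 and at least 5.25-fold higher than a floor of 3 counts over the medium group, and Hbq1a, a theta globin, at least 3.38-fold higher. The other genes named by the rule were Scn2b, Mgst1 and Vmn1r60, with 7 to 8 counts under IL-6. Of the reverse kind, Zfp97 had 0 counts under IL-6 and 17 in medium, at least 5.03-fold lower, and H2ac7 had 0 and 8. Hoatz overlaps Btg4.

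The study sets the ChimP3V3 receptor beside gp130:IL-6R, so each response was tested against that of gp130:IL-6R cells as a difference of log2 changes (ChimP3V3 minus gp130:IL-6R). The difference was called for 2280 of 9540 genes (23.9%), with 1182 above 0 and 1098 below. The 2 lines may also differ in ways other than the receptor, which cannot be told apart here.

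The feedback genes Socs3 and Socs1 and the cytokine gene Osm did not pass this test. Socs3 rose by 2.39 on the log2 scale in ChimP3V3 cells (SE 0.158) and by 2.73 in gp130:IL-6R cells (SE 0.111), a difference of -0.35 (SE 0.230, adjusted p = 0.299). The difference was -1.10 for Socs1 (SE 0.936, adjusted p = 0.434) and -0.47 for Osm (SE 0.277, adjusted p = 0.283). A p above the threshold does not show that the lines respond alike, and with these SEs moderate differences could pass unseen. Stat3 had a difference of -0.04 (SE 0.0683). Txnip and H1f2, which rose in both lines, had differences of -0.02 (SE 0.0706) and -0.17 (SE 0.0760).

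Several ERK-linked genes had negative differences. Fos averaged 12.9 ± 1.47 CPM under IL-6 and 23.6 ± 1.12 CPM in medium in ChimP3V3 cells (SD, n = 4 each), where it fell, and 59.5 CPM under IL-6 and 0.638 CPM in medium in gp130:IL-6R cells. The difference was -7.20 on the log2 scale (SE 0.380, adjusted p = 1.30e-18); only 4 counts lie behind the gp130:IL-6R medium level, so its size is loosely fixed. Dusp1 had log2 changes of -0.62 in ChimP3V3 cells and 2.09 in gp130:IL-6R cells, and Junb of 0.55 and 1.68, with differences of -2.71 (SE 0.167) and -1.13 (SE 0.0943). Egr2 and Ier2, early ERK genes, differed by -4.01 and -1.01. Of the 17 tested ERK early and feedback genes 6 had a called negative difference and 1, Ier3, a positive one, at log2 changes of 2.16 in ChimP3V3 cells and 1.16 in gp130:IL-6R cells. Dusp6 was not called (difference -0.31, SE 0.143, adjusted p = 0.166).

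Anxa1, a membrane-binding annexin, had 217, 241, 232 and 215 CPM under IL-6, against 262, 260, 290 and 276 CPM in medium, in ChimP3V3 cells, where it fell 1.20-fold; its log2 change in gp130:IL-6R cells was 2.96, a difference of -3.23 (SE 0.189). S100a4, a calcium-binding protein, had 480, 491, 497 and 526 CPM under IL-6, against 346, 339, 333 and 340 CPM in medium, in ChimP3V3 cells. It rose in both lines, by 0.55 in ChimP3V3 cells and by 3.25 in gp130:IL-6R cells on the log2 scale (difference -2.70, SE 0.139). Vim, Klf6 and F2r, the thrombin receptor, fell in ChimP3V3 cells by 0.42, 0.22 and 0.29 on the log2 scale, with changes of 0.65, 1.29 and 1.00 in gp130:IL-6R cells.

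The positive difference with the smallest p was that of Cdk6, whose log2 change was 0.74 in ChimP3V3 cells (SE 0.0371) and -0.56 in gp130:IL-6R cells (SE 0.0377), a difference of 1.30 (SE 0.0528, adjusted p = 4.47e-22). Pim1 rose in both lines, by 1.60 in ChimP3V3 cells and 0.56 in gp130:IL-6R cells (difference 1.05, SE 0.0764). Atg12, a conjugate of autophagy, had 220, 238, 222 and 223 CPM under IL-6, against 165, 160, 152 and 163 CPM in medium, in ChimP3V3 cells. Its log2 changes were 0.50 in ChimP3V3 cells and -0.50 in gp130:IL-6R cells (difference 1.00, SE 0.0689). Muc13, a surface mucin, Col5a1, a fibrillar collagen chain, Gria3, Scin and Gpx1, a peroxidase that removes hydrogen peroxide, rose in ChimP3V3 cells by 0.46, 0.72, 1.23, 0.89 and 0.52 on the log2 scale, with changes of -0.86, -0.53, -0.17, -0.32 and -0.19 in gp130:IL-6R cells. Bcl2 differed by 0.72 (log2 0.26 in ChimP3V3 cells and -0.46 in gp130:IL-6R cells).

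By list, the difference was positive for 16 of 44 replication genes and negative for 3, and positive for 16 and negative for 1 of 40 ribosome biogenesis genes. It was positive for 13 of 24 cholesterol synthesis genes and negative for none of them. Negative calls were the more frequent for integrated stress response genes (13 of 31, none positive), ER chaperone genes (12 of 26, 1 positive), autophagy and lysosome genes (14 of 35, 2 positive) and p53 targets (11 of 23, none positive). Of 17 tested STAT3 target genes, 5 had a negative and 1, Pim1, a positive difference. Of 11 tested AP-1 subunits, 5 had a negative and 1 a positive one. Among all tested genes 12.4% had a called positive and 11.5% a called negative difference. Sqstm1, a receptor of selective autophagy, had log2 changes of -0.06 in ChimP3V3 cells and 1.15 in gp130:IL-6R cells. Of mitosis genes, which fell in ChimP3V3 cells, 9 of 50 had a positive and 2 a negative difference.

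**Figure D5:**
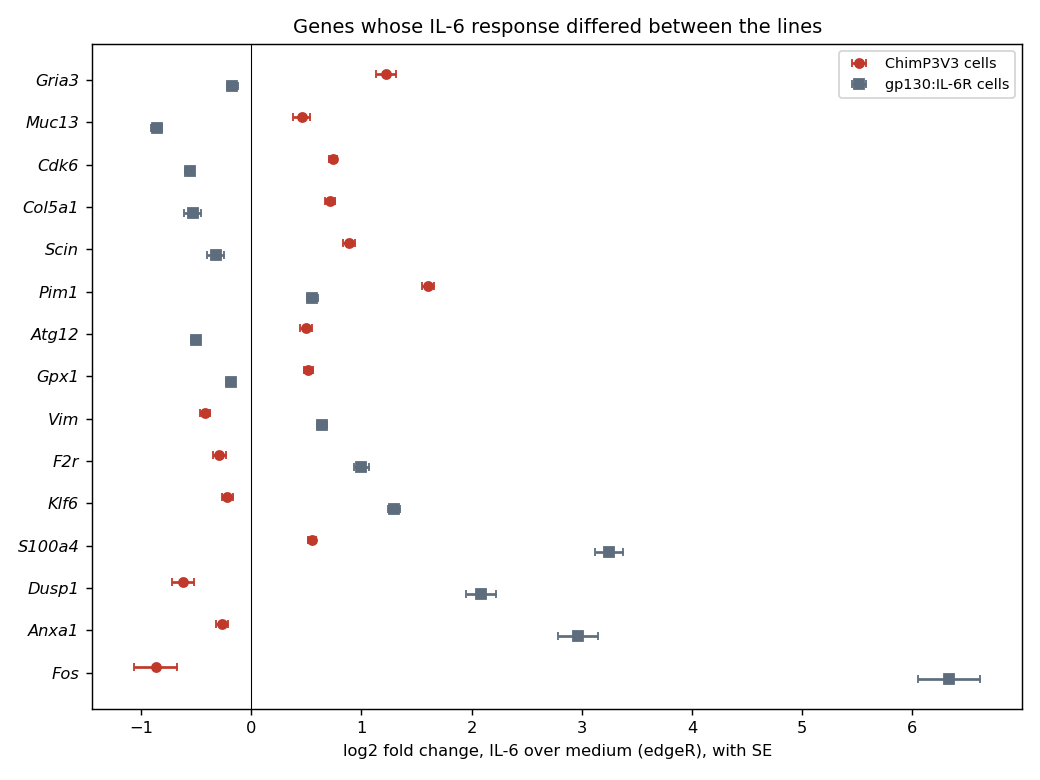
Log2 fold change, IL-6 over medium (x axis, edgeR, bars are 1 SE, 4 libraries per group), in ChimP3V3 cells (red circles) and gp130:IL-6R cells (grey squares) for 15 genes (y axis) with the smallest p of the difference in each direction among genes called in ChimP3V3 cells. For 8 genes the ChimP3V3 value lies to the right, Cdk6 at 0.74 against -0.56, and for 7 to the left, Fos at -0.87 against 6.33.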

How the data were processed

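RNA of 16 Ba/F3 libraries was read from the 3′ end (QuantSeq FWD kit, 100 ng of total RNA, single reads of 100 bases on a NextSeq2000), per the labels' protocols. The authors deposited whole-number counts per gene, made in CLC Genomics Workbench 23.0.4 on GRCm39 with Ensembl 107 genes, per the file headers; the build is also named in the submitters' processing notes. The sources used here give no read filters and no strand setting; the table's 48 columns of other units per library were not used.

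Counts were fitted with edgeR 4.0.16 (R 4.3.3; quasi-likelihood test, TMM factors, 1 mean per group, all 16 libraries, 12 residual degrees of freedom) after filterByExpr (at least 10 counts in a group's worth of libraries, 15 in all), which kept 9540 of 25650 genes. The 2 tests were IL-6 minus medium in ChimP3V3 cells, and that change minus the one in gp130:IL-6R cells; they share the ChimP3V3 libraries. Calls were made below an adjusted p of 0.05 (Benjamini-Hochberg, over all tested genes). CPM values are counts scaled to a library total of 1000000 and use TMM-scaled totals, those of the count floors included. Each SE of a log2 change is its absolute value divided by the square root of the F value of its quasi-likelihood test. These SEs are approximate, and those of the 2 lines need not combine to that of their difference. Levels are compared within a gene only. Promoter sequences are from RefSeq on GRCm38.p6. DESeq2 1.42.0, limma 3.58.1, pandas 2.3.3 and matplotlib 3.10.9 served for alternatives, tables and figures, and the fit was tested on simulated data.

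Members and gene lists were chosen with earlier results of these data known. Genes were named by rule: the 14 largest rises and 14 largest falls (mean of 5 CPM or more, no overlap between groups), the 6 smallest p each way (50 CPM or more), the 8 smallest p of the difference each way, up to 4 called members of each of 44 lists, up to 5 genes counted on 1 side only, and 15 pathway genes. Genes named beyond it, such as Socs2, Gata1, Klf1, Mcl1, Gins2, Rfc2 and Egr2, were chosen after their values were seen. Some genes that the rule or the lists select are not reported here; the counts over lists include them.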

Additional observations from a re-analysis of the deposited data

Results flagged for a closer look

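Each group of 4 libraries was screened for a library far from the other 3, for 35 genes whose response was compared between the lines or named as pathway genes (70 groups); chance picks out about 1 in 20 groups. This found 7. The highest IL-6 library of Atg12 had 238 CPM, with the next at 223 CPM. The lowest IL-6 library was 285 CPM for Klf6 (next 319 CPM), 155 CPM for F2r (next 168 CPM) and 217 CPM for Stat3 (next 220 CPM). In medium, the highest library was 131 CPM for Pim1 (next 115 CPM), 266 CPM for Col5a1 (next 247 CPM) and 0.689 CPM for Bcl3, which is its only count in ChimP3V3 cells. The Pim1, Atg12, Col5a1, Klf6 and F2r responses stayed called without each of these libraries.

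For 21 genes the response differed between the lines by edgeR's test of the difference itself (ChimP3V3 minus gp130:IL-6R, log2, adjusted p under 0.05). The difference was positive for Gria3 (1.40), Muc13 (1.32), Cdk6 (1.30), Col5a1 (1.25), Scin (1.21), Pim1 (1.05), Atg12 (1.00), Ier3 (1.00), Bcl2 (0.72) and Gpx1 (0.71). It was negative for Fos (-7.20), Egr2 (-4.01), Anxa1 (-3.23), Dusp1 (-2.71), S100a4 (-2.70), Klf6 (-1.51), F2r (-1.29), Sqstm1 (-1.21), Junb (-1.13), Vim (-1.07) and Ier2 (-1.01). Most of these genes were chosen by the p of this test, so their number says nothing about how common such differences are; over all tested genes 23.9% had one.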

How the results depend on the processing

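The number of genes called in the response (2625) was 1937 with DESeq2 and up to 2652 in the fit of the 8 ChimP3V3 libraries alone, and 2295 to 2432 with 1 ChimP3V3 library left out; higher calls were 1138 to 1411 and lower calls 965 to 1158 in those. At an adjusted p under 0.01 the number was 1839, with 1090 higher and 749 lower. At an estimated fold of at least 1.5 it was 510, with 293 higher and 217 lower. Both are by construction fewer. The difference between the lines (2280 genes) gave 1564 with DESeq2, of which 744 were positive, and 2073 to 2200 with 1 library left out (873 to 1166 positive, 1008 to 1228 negative). It gave 1453 at an adjusted p under 0.01 (724 positive, 729 negative) and 1006 at 1.5-fold or more (394 positive, 612 negative), by construction fewer. Higher genes made up 58.7% of the calls of the response. The share was 55.1% with RLE factors, 53.8% with upper-quartile factors, 53.6% with counts thinned to the smallest total and 50.7% with no filter. It was 50.6% with a 5 CPM filter, 50.2% within the 8 libraries and 49.6% to 50.9% without 1 ChimP3V3 IL-6 library. Without gp130:IL-6R IL-6 library 1 or 4 it was 50.8%, and without 1 of the other gp130:IL-6R libraries 57.5% to 58.9%. The cause was not tested. No named gene changed direction while called in any alternative run.

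Replicate numbers showed no pairing of the libraries. Correlations between same-numbered libraries were -0.029 to 0.043 in ChimP3V3 cells, and 0 of 4 ChimP3V3 libraries were closest to their own number. Libraries of a group differed little beyond counting error, so this check could miss a pairing of cultures. With the replicate block 2548 genes were called (1494 higher, 1054 lower) in the response and 2206 in the difference. Summing, in pairs, libraries that agreed within sampling noise, an alternative chosen after seeing the data, gave 2549 and 2231.

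Of 175 genes named by rule and called, 163 stayed called in every alternative, and of 30 named beyond it, 22 did. Losses without 1 library stand beside the genes. Hba-a1, Hba-a2 and Anxa1 lost their calls only with limma on log2(CPM + 1), with adjusted p of 0.121, 0.298 and 0.160. Of the genes reported here, limma also lost the calls of Grk6, Pfkfb4, Cdkn1b and Alad (adjusted p 0.0659 to 0.0948). DESeq2 lost those of Stat5b, Cish, Irf1, Dusp2, Grk6, H4c2, Pfkfb4, Alas1 and Alad (adjusted p 0.0557 to 0.152). The calls of Irf1, Dusp2, Grk6, H4c2 and Alad were lost in further settings too. Of 1584 counts over gene lists, 84 moved by more than 1.5 times, mostly counts of a few genes. Depth limits low genes: under 5 CPM 3.76% were called. The time under IL-6, the presence of IL-3 and the independence of the cultures are not given in the sources used here.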
